A study of Homo sapiens with 6 samples.

Results

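The 7 genes LIN28A, LIN28B, IGF2BP1, IGF2BP2, IGF2BP3, HMGA1 and HMGA2 were taken by name from a table of 26347 gene rows, and all 7 had a row. They were chosen as oncofetal genes of the LIN28 and let-7 axis, by a rule that names genes and uses no measured value. RNA was sequenced from THP-1, a cell line started from a human monocytic leukaemia and grown here in RPMI medium with 10% serum; the series title calls the cells macrophages, but the labels name no differentiation step. Both groups were transfected: 3 libraries came from cells given a miR-125a-5p mimic and 3 from cells given a negative control mimic, with RNA taken 24 h later. A mimic is a synthetic duplex that loads a microRNA into the cell's silencing machinery, so its level is set by the transfection and not by the cell's own gene. The labels do not say whether the 3 libraries of a group came from separate cultures, so p-values reflect spread among the libraries at hand, part or all of which may be technical.

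LIN28A and LIN28B are RNA-binding proteins that bind precursors of the let-7 microRNAs and block let-7 maturation. One route, not necessarily shared by both, is the recruitment of uridylyl transferases to those precursors. Mature let-7 in turn pairs with the 3′ untranslated region (3′ UTR) of a set of fetal mRNAs, among them LIN28B, HMGA2 and the IGF2BP genes. The IGF2BP proteins bind and stabilise mRNAs through KH domains, and the HMGA proteins bend AT-rich DNA through AT-hooks. In Caenorhabditis elegans the relative of miR-125, lin-4, represses lin-28, and LIN28 is a textbook target of miR-125 in mammals. All of these genes are typical of fetal tissue and return in many tumours.

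The mature microRNAs are shown first because their seeds, bases 2 to 8 in capitals, define the matches searched for in the 7 genes. Sequences are from RefSeq (GRCh38.p14). The miR-125 pair shares one seed and the let-7 family another, and let-7e and miR-125a are both encoded on chromosome 19.
hsa-miR-125a-5p: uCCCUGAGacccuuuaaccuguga
hsa-miR-125b-5p: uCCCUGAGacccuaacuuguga
hsa-let-7a-5p: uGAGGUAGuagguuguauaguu
hsa-let-7e-5p: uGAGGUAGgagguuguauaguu

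For each gene the longest 3′ UTR of GENCODE 29 (GRCh38) was scanned for seed matches, while the counts themselves rest on hg19. An 8mer is the full match with an A after it, CTCAGGGA for miR-125 and CTACCTCA for let-7. For miR-125, a 7mer is CTCAGGG, which lacks that A, or TCAGGGA, which lacks the match to base 8, and a 6mer is TCAGGG. For let-7 the same 7mers are CTACCTC and then TACCTCA, and the 6mer is TACCTC. Matches were searched on the transcript strand, and the shorter motifs lie within the 8mer. Of the 7 genes, LIN28A and LIN28B alone held a miR-125 match longer than a 6mer in that 3′ UTR, 1 8mer each. Such a match was in 2 of 2 annotated 3′ UTRs of LIN28A but in only 1 of 2 of LIN28B. IGF2BP1, IGF2BP3 and HMGA2 held 1 miR-125 6mer each, and IGF2BP2 and HMGA1 held none.

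The miR-125 8mers of the LIN28 genes are printed with the 14 bases before them, the match in capitals. In both genes the match lies in exon 4 of 4, within the 3′ UTR, on the plus strand. The LIN28A site is at chr1:26427259-26427266 and the LIN28B site at chr6:105081131-105081138.
LIN28A, miR-125 8mer: ggtacatgagcaatCTCAGGGA
LIN28B, miR-125 8mer: gacaaagaactttgCTCAGGGA
In LIN28A the nearest let-7 match followed 96 bases later, an 8mer at chr1:26427363-26427370, and in LIN28B 115 bases later, a 7mer at chr6:105081254-105081260. A miR-125 7mer or 8mer was held by 37.3% of 5062 tested genes with a 3′ UTR 0.5 to 2 times as long as that of LIN28A. For the longer 3′ UTR of LIN28B the share was 42.7% of 3843 genes. These shares count 7mers and 8mers together and are matched for length. Over all 12793 tested genes searched, of any 3′ UTR length, 6% held a miR-125 8mer and 24.3% a 7mer or 8mer.

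Let-7 matches of 7 or 8 bases were present in 6 of the 7 longest 3′ UTRs. LIN28B and IGF2BP1 held 5 each, IGF2BP2 held 2, and LIN28A, IGF2BP3 and HMGA1 held 1. The best was an 8mer in all of these but HMGA1, which had a 7mer. HMGA2 differed between isoforms. Its longest 3′ UTR (7421 bases) held only a let-7 6mer, while another annotated 3′ UTR (3003 bases, exon 5 of 5) held 8 matches, of which 7 had 7 or 8 bases, and a miR-125 7mer at chr12:65965494-65965500. That isoform was singled out because it held the most let-7 matches. Its let-7 8mer is at chr12:65963313-65963320, and that of IGF2BP2, the IGF2BP gene with most counts, is in exon 16 of 16 on the minus strand at chr3:185644220-185644227.
HMGA2, let-7 8mer: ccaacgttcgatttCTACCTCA
IGF2BP2, let-7 8mer: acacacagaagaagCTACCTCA
LIN28B, let-7 8mer nearest the stop codon: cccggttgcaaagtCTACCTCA
Among tested genes with a 3′ UTR of like length, a let-7 match of 7 or 8 bases was held by 15.6% for HMGA1, 18.7% for IGF2BP2, 21.5% for IGF2BP3, 27.8% for LIN28A, 33.5% for LIN28B, 41.3% for IGF2BP1 and 46.3% for HMGA2. A match is a description of the annotated sequence and does not show that a site is used in these cells.

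**Figure D1:**
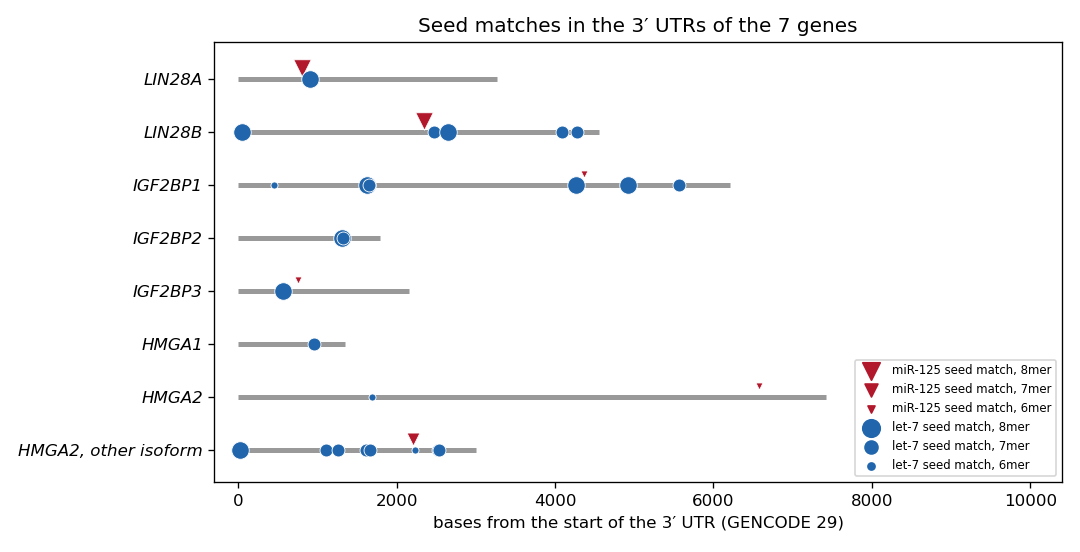
Seed matches of miR-125 (triangles, drawn above the line) and let-7 (circles) along the 3′ UTRs of the 7 genes, in bases from the start of the 3′ UTR. Grey lines span the 3′ UTR and larger symbols stand for longer matches. The miR-125 8mers are in LIN28A and LIN28B, and the second HMGA2 line is the isoform with 8 let-7 matches.

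Library totals ran from 8256149 to 10257791 counts. In a principal component analysis of log2 CPM (counts per 1e6, with library sizes scaled by edgeR's TMM factors), component 1 (25% of the variance) put control library 1 at 38.2 and the other libraries between -16.3 and -1.14. On the second (21.2%), miR-125a-5p library 3 lay at -31.1 and the others between -5.24 and 21.5. All 11 markers of the monocytic line had counts, and their summed level was 2703 to 2845 CPM in miR-125a-5p libraries and 2701 to 3006 CPM in control libraries. Markers of pluripotent cells, a source of LIN28A, summed to 2.11 to 3.70 CPM in miR-125a-5p libraries and 2.65 to 4.31 CPM in control libraries. Over the 6 libraries POU5F1 had 99 counts, NANOG 61, PRDM14 6, ZFP42 1 and SOX2 0. T cell and epithelial markers stayed under 1.1 CPM in every library, while hepatocyte markers summed to at most 2.39 CPM. B cell markers summed to 45 to 62.7 CPM in miR-125a-5p libraries and 54 to 86.5 CPM in control libraries, most of it from PAX5.

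The 7 genes spanned a wide range of levels, compared here as CPM per kilobase of annotated exon. HMGA1, the HMGA protein abundant in dividing cells, had 202 ± 25.2 CPM per kilobase (SD, n = 3) in miR-125a-5p libraries and 196 ± 9.81 (SD, n = 3) in control libraries, above 99.4% of the 20427 rows with a count and a known length. IGF2BP2, the member of its family that persists in adult tissues, had 26.7 ± 3.10 CPM per kilobase in miR-125a-5p libraries and 29.7 ± 2.89 CPM per kilobase in control libraries (SD, n = 3), above 92.5% of rows. IGF2BP3 followed at 0.998 ± 0.214 in miR-125a-5p libraries and 0.910 ± 0.112 in control libraries, and LIN28A at 0.398 ± 0.218 CPM per kilobase in miR-125a-5p libraries and 0.492 ± 0.0870 CPM per kilobase in control libraries (SD, n = 3). The ranges of these 4 genes over the 6 libraries did not overlap each other. HMGA2 (at most 0.0828 CPM per kilobase), LIN28B (at most 0.0817) and IGF2BP1 (at most 0.0645) lay below all of them and overlapped each other, so their order is not resolved. The exon length of HMGA2, 15403 bases, adds up many isoforms and lowers its value on this scale.

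Between the groups, 0 of the 4 testable genes were called different. Genes were tested with edgeR's quasi-likelihood test over 14731 genes with enough counts, where LIN28A, IGF2BP2, IGF2BP3 and HMGA1 passed the count filter and LIN28B, IGF2BP1 and HMGA2 did not. Over all genes tested 0.0272% were called at an adjusted p under 0.05, and 0 called among 4 is no different from that share. Lower calls made up all of them, and higher calls were 0. At an unadjusted p under 0.05 there were also 0 of 4, where 2.69% of all genes were higher and 3.22% lower. DESeq2, which gave 3 of the 4 an adjusted p, called 0 of them, against 0.0152% of all its genes higher and 0.0686% lower. The count by limma voom was also 0 of 4. In each of the 4 genes the 2 groups of libraries overlapped, whereas 5.9% of all tested genes were lower and 5.31% were higher in every miR-125a-5p library.

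LIN28A, the LIN28 protein of early embryos and pluripotent cells, carries the 8mer printed above. It had 19, 18 and 5 counts in miR-125a-5p libraries 1, 2 and 3, and 16, 18 and 20 counts in control libraries 1, 2 and 3. In CPM these were 2.23, 1.96 and 0.599 in miR-125a-5p libraries and 1.57, 2.13 and 2.21 in control libraries. Only miR-125a-5p library 3, the one apart on the second component, was low, and the other 5 libraries lay close together. The log2 fold change was -0.29 (SE 0.51, edgeR adjusted p = 0.966), with a 95% interval of -1.34 to 0.76, or a change of -60.6% to 69.7%. Without miR-125a-5p library 3 it was 0.088. At 5 to 20 counts a library, the interval is wide and holds both a fall and a rise.

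LIN28B, the LIN28 paralogue found in many tumours, had 4, 1 and 0 counts in miR-125a-5p libraries and 5, 0 and 3 in control libraries. Summed, that was 5 counts (exact Poisson 95% interval 1.62 to 11.7) of 26150668 after the miR-125a-5p mimic and 8 counts (3.45 to 15.8) of 27721316 after the control mimic. The ratio of the summed rates was 0.663, with an exact binomial 95% interval of 0.171 to 2.30. These intervals cover counting error only, and that of the ratio holds both a decrease and an increase of LIN28B.

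Among the IGF2BP genes, IGF2BP2 had 940, 1196 and 1162 counts in miR-125a-5p libraries and 1276, 1229 and 1369 in control libraries. The levels were 110.4, 130.0 and 139 CPM after the miR-125a-5p mimic and 125, 146 and 151 CPM after the control mimic. The miR-125a-5p libraries tended lower, but libraries 2 and 3 of that group lay above control library 1. The log2 fold change was -0.15 (SE 0.11, 95% interval -0.37 to 0.067, edgeR adjusted p = 0.898), a level 0.9 times that of the control with an interval of 0.773 to 1.05. Its 3′ UTR has no miR-125 match. Leaving out 1 library moved the log2 fold change between -0.23 and -0.065, and without control library 1 the unadjusted p was under 0.05, the 1 such case among these genes, with an adjusted p of 0.740.

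IGF2BP3, a marker of fetal and tumour tissue, had 67, 97 and 59 counts in miR-125a-5p libraries and 80, 73 and 61 in control libraries. In CPM it stood at 7.87, 10.5 and 7.07 in miR-125a-5p libraries and 7.85, 8.64 and 6.74 in control libraries, and only miR-125a-5p library 2 lay above every control library. The log2 fold change was 0.14 (SE 0.24, 95% interval -0.37 to 0.64, edgeR adjusted p = 0.966), and -0.053 without that library. IGF2BP1, the founding fetal member, had 5 counts in miR-125a-5p library 1 and 0 counts in the other 5 libraries. Summed, the 5 counts after the miR-125a-5p mimic (exact Poisson 95% interval 1.62 to 11.7) and the 0 after the control mimic (0 to 3.69) have overlapping intervals, and all 5 came from 1 library.

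Of the HMGA genes, HMGA1 was the most precisely measured of all 7. It had 3552, 4233 and 4452 counts in miR-125a-5p libraries and 4908, 3689 and 4089 in control libraries. In CPM it had 417, 460.1 and 533 after the miR-125a-5p mimic and 482, 437 and 452 after the control mimic, so the miR-125a-5p libraries held both the lowest and the highest value. The log2 fold change was 0.042 (SE 0.094, 95% interval -0.15 to 0.24, edgeR adjusted p = 0.972), and the interval spans a change of -10.1% to 17.8%. Without miR-125a-5p library 3 it was -0.061. HMGA1 has many processed pseudogene copies, and no label says how reads matching several places were counted. The 1 pseudogene row named for it in the table, HMGA1P7, held 0 counts.

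HMGA2, the embryonic HMGA protein and a well-known let-7 target, had 6, 9 and 4 counts in miR-125a-5p libraries and 13, 3 and 4 in control libraries. The sums were 19 (exact Poisson 95% interval 11.4 to 29.7) after the miR-125a-5p mimic and 20 (12.2 to 30.9) after the control mimic, a ratio of the summed rates of 1.01 with an exact binomial 95% interval of 0.508 to 1.99. Control library 1 alone held 13 of the 20 control counts.

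**Figure D2:**
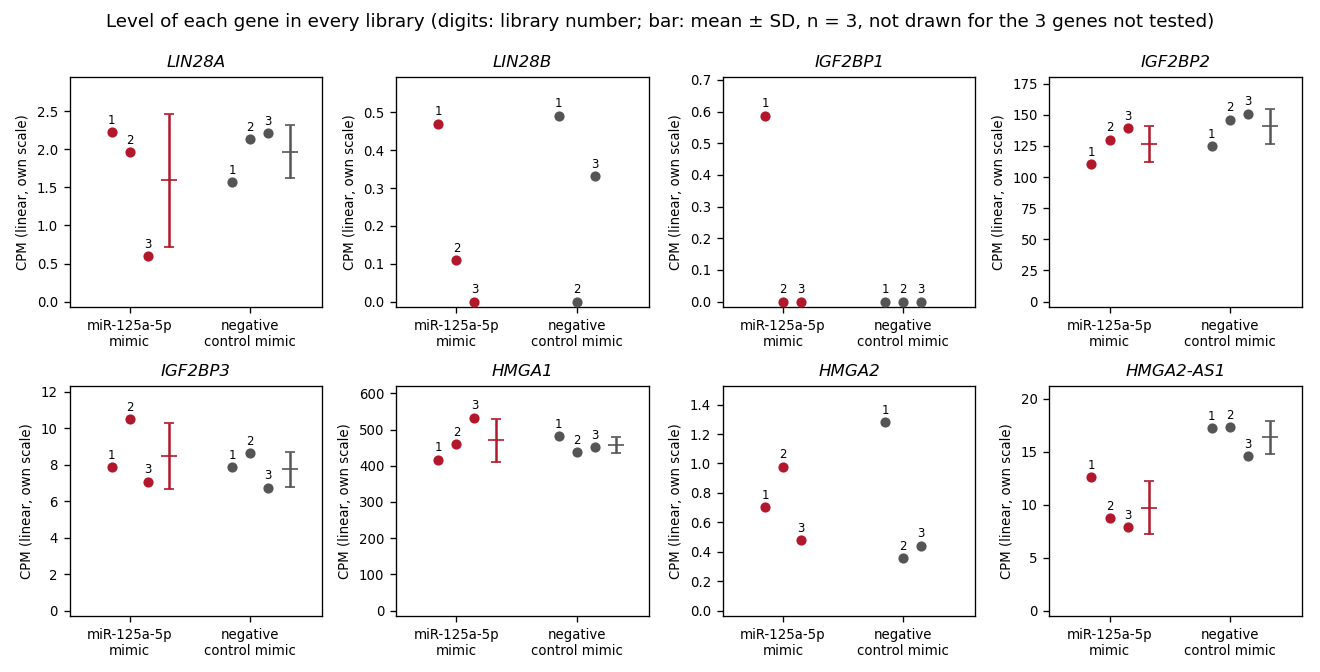
CPM of the 7 genes and of the antisense row HMGA2-AS1 in each library, with miR-125a-5p mimic libraries in red and negative control mimic libraries in grey, on a linear scale of its own for each gene. Digits are library numbers and bars are mean ± SD of 3 libraries, drawn for the tested genes. The groups overlap for all 7 genes, and HMGA2-AS1 is lower in each miR-125a-5p library (7.90 to 12.6 CPM) than in each control library (14.6 to 17.3 CPM).

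Antisense genes were looked at beside their partners, since no source says that reads were counted by strand. HMGA2-AS1 is a long non-coding RNA gene on the minus strand of chromosome 12, opposite HMGA2. It had 107, 80 and 66 counts in miR-125a-5p libraries and 175, 146 and 132 in control libraries. Per kilobase of exon it stood at 1.61 ± 0.414 CPM in miR-125a-5p libraries and 2.71 ± 0.254 CPM in control libraries (SD, n = 3), above HMGA2 in every library. The levels of 12.6, 8.70 and 7.90 CPM after the miR-125a-5p mimic were all below the 17.2, 17.3 and 14.6 CPM after the control mimic. The log2 fold change was -0.75 (SE 0.21, 95% interval -1.18 to -0.32), but the edgeR adjusted p was 0.406 (unadjusted p = 0.00141), so it did not pass, and over the alternatives the adjusted p ran from 0.108 to 0.992. Of the 14731 genes tested, 50 had a smaller p. Leaving any 1 library out kept it between -0.98 and -0.63.

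HMGA2-AS1 was described because its name places it with HMGA2. A miR-125 8mer lay in 1 of its 4 annotated transcripts, at chr12:65856226-65856233 in exon 3 of 3. The same exon also held a miR-125 7mer, at chr12:65856693-65856699.
HMGA2-AS1, miR-125 8mer: ggcattgcttggacCTCAGGGA
Of 3075 non-coding transcripts 0.5 to 2 times as long, 12.6% held such an 8mer. Which transcript of HMGA2-AS1 gave the counts cannot be read from a table of gene totals, and its exons share 384 of 6033 bases with exons of HMGA2. A miR-125 match was not limited to this antisense gene. IGF2BP2-AS1, whose best miR-125 match was a 7mer, held a match of 6 or more bases in 3 of 5 annotated transcripts. In 1 of these 3 the match was only a 6mer. For 7mers and 8mers alone, the share among 9012 non-coding transcripts of like length was 28.4%. IGF2BP2-AS1, opposite IGF2BP2 with 0 shared exon bases, had 13.3 ± 1.59 CPM in miR-125a-5p libraries and 13.4 ± 2.65 CPM in control libraries (SD, n = 3). Its log2 fold change was -0.008 (SE 0.20, edgeR adjusted p = 0.996). LIN28B-AS1 had 3, 6 and 0 counts in miR-125a-5p libraries and 0 counts in each control library. The sum of 9 in miR-125a-5p libraries had an exact Poisson 95% interval of 4.12 to 17.1. For the 0 in control libraries the interval was 0 to 3.69. Both intervals cover counting error only, not the spread among libraries, and this gene did not pass the count filter. The exons of LIN28B-AS1 share 67 of 2860 bases with those of LIN28B.

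**Figure D3:**
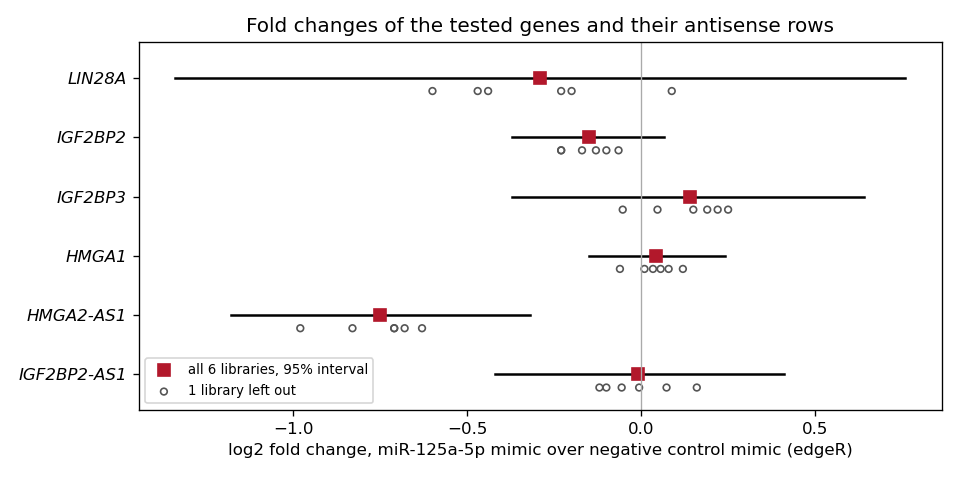
Log2 fold change (miR-125a-5p mimic over negative control mimic, edgeR) of the 4 tested genes and of 2 antisense rows, as squares with 95% intervals, and with each library left out in turn as open circles. Intervals of the 4 genes all span 0, that of HMGA1 being the narrowest (-0.15 to 0.24) and that of LIN28A the widest (-1.34 to 0.76). HMGA2-AS1 lies at -0.75 and did not pass after adjustment.

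The genes whose levels ran most like those of each member over the 6 libraries were found by the root mean square distance of mean-centred log2 CPM, among 11596 other genes with at least 5 CPM. For HMGA1 these were RHOG, a small GTPase (distance 0.0195, against a median of 0.192 over all genes), and EOGT, an O-GlcNAc transferase (0.0284). For IGF2BP2 they were GINS2, a subunit of the replicative helicase (0.0321, median 0.218), and GAMT, an enzyme of creatine synthesis (0.0382). For IGF2BP3 they were GK5, a glycerol kinase relative (0.0433, median 0.256), and RRP9, a processing factor of ribosomal RNA (0.0595). With 6 libraries and this many genes, close neighbours occur for any gene.

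Genes around the axis were described by 8 lists of 107 distinct tested genes. By edgeR 0 of the 107 were called, against 0.0272% of all genes, and 11 (10.3%) had an unadjusted p under 0.05, against 5.92% of all genes. In 6 of the 107 every miR-125a-5p library was lower than every control library and in 7 every one was higher, where 5.9% and 5.31% of all tested genes did so. The median log2 fold change over all tested genes was 0.0011, and 49.8% of them were negative.

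The partners of LIN28 in let-7 maturation, among them the uridylyl transferases TUT4 and TUT7 and the exonuclease DIS3L2, had 17 tested members, 9 negative and 8 positive, with a median log2 fold change of -0.021. Leaving out control library 2 gave a median of 0.021, and leaving out miR-125a-5p library 1 gave -0.00036. XPO5, which exports microRNA precursors from the nucleus, had 238, 217 and 237 CPM in miR-125a-5p libraries and 193, 199 and 206 CPM in control libraries (log2 fold change 0.21, SE 0.090, edgeR adjusted p = 0.799). It was higher in all 3 miR-125a-5p libraries and held no miR-125 match. PRKRA, a partner of Dicer with a miR-125 7mer, had 22.4, 20.2 and 20.5 CPM in miR-125a-5p libraries and 26.7, 25.5 and 22.6 CPM in control libraries, and was lower in all 3 miR-125a-5p libraries. ZC3H7A, an RNA-binding zinc finger protein, had 55.3 ± 7.18 CPM in miR-125a-5p libraries and 65.5 ± 5.01 CPM in control libraries (SD, n = 3), with overlapping groups. The log2 fold change was -0.25 for PRKRA and -0.24 for ZC3H7A, with edgeR adjusted p of 0.884 for PRKRA and 0.843 for ZC3H7A.

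Transcripts that host let-7 hairpins had 3 tested members with a median of 0.0042, and 2 of the 7 names listed had no row. MIRLET7BHG, the host of let-7b and one copy of let-7a, had 13.5, 11.6 and 19.9 CPM in miR-125a-5p libraries and 18.6, 21.7 and 14.5 CPM in control libraries. The groups overlapped, with a log2 fold change of -0.28 (SE 0.21, edgeR adjusted p = 0.904), which was -0.54 without miR-125a-5p library 3, -0.43 without control library 3, -0.15 without control library 2 and -0.13 without miR-125a-5p library 2. HUWE1, whose introns hold let-7f and miR-98, had 816 ± 51.8 CPM in miR-125a-5p libraries and 814 ± 68.1 CPM in control libraries (SD, n = 3), and LINC02603, the host near let-7d, 8.48 ± 0.564 CPM in miR-125a-5p libraries and 7.89 ± 0.643 CPM in control libraries (SD, n = 3).

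Reported let-7 targets other than the 7 genes had 35 tested members, 14 negative and 21 positive, with a median log2 fold change of 0.055. RRM2, a subunit of ribonucleotide reductase with a let-7 8mer and a miR-125 7mer, had 454, 417 and 415 CPM in miR-125a-5p libraries and 382, 327 and 337 CPM in control libraries. It was higher in each miR-125a-5p library (log2 fold change 0.30, SE 0.090, edgeR adjusted p = 0.501). ARID3A, a DNA-binding protein with 8mers for both microRNAs, had 16.3, 13.8 and 26.7 CPM in miR-125a-5p libraries and 28.7, 25 and 27.2 CPM in control libraries. Libraries 1 and 2 of the miR-125a-5p group were low and library 3 was not, and the log2 fold change of -0.51 (SE 0.19, edgeR adjusted p = 0.670) was -0.84 without that library and -0.33 without miR-125a-5p library 2.

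FAS, a death receptor with a let-7 8mer and no miR-125 match, had 2.11, 0.761 and 1.20 CPM in miR-125a-5p libraries and 6.08, 1.89 and 2.65 CPM in control libraries. Its log2 fold change of -1.40 (SE 0.50, edgeR adjusted p = 0.655) was -0.75 without control library 1, which held the highest value. As a wider view of let-7, 564 tested genes with a let-7 8mer in the longest 3′ UTR had a median log2 fold change of 0.0033, with 49.1% negative. In 31 of them every miR-125a-5p library was lower than every control library and in 38 every one was higher, while 5.9% of all tested genes were lower and 5.31% higher in this way. The median was -0.013 without miR-125a-5p library 3 and -0.012 without control library 2. Against the control mean, the list's median lay at 0.016, -0.0081 and 0.00013 in miR-125a-5p libraries 1, 2 and 3, and 68 of the genes also held a miR-125 8mer.

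Reported client mRNAs of the IGF2BP proteins had 21 tested members, 8 negative and 13 positive, with a median of 0.068 that was 0.012 without miR-125a-5p library 3. CDK6, a kinase of the G1 phase also listed as a let-7 target, had 479, 442 and 452 CPM in miR-125a-5p libraries and 416, 371 and 404 CPM in control libraries (log2 fold change 0.21, edgeR adjusted p = 0.787). EIF4EBP2, a repressor of cap-dependent translation, had 165, 170.4 and 192 CPM in miR-125a-5p libraries and 206, 204 and 206 CPM in control libraries (log2 fold change -0.22, edgeR adjusted p = 0.773). The groups did not overlap for either gene, but neither passed. CCND1, cyclin D1, had 37.4 ± 6.12 CPM in miR-125a-5p libraries and 30.6 ± 5.16 CPM in control libraries (SD, n = 3), with overlapping groups.

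Genes of IGF and insulin signalling, the pathway that gave the IGF2BP family its name, had 17 tested members, 10 negative, with a median of -0.059. AKT1, a kinase downstream of the receptors, had 33.2, 34.2 and 35.6 CPM in miR-125a-5p libraries, all below the 43.6, 42.2 and 36.6 CPM of control libraries (log2 fold change -0.25, edgeR adjusted p = 0.855). The insulin receptor INSR had 126 ± 15.4 CPM in miR-125a-5p libraries and 141 ± 7.95 CPM in control libraries, and the adaptor SHC1 148 ± 13.8 CPM in miR-125a-5p libraries and 163 ± 12.1 CPM in control libraries (SD, n = 3 each).

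Other architectural HMG proteins had 12 tested members, 8 negative, with a median of -0.072. HMGN2, which binds nucleosomes, had 626 ± 26.8 CPM in miR-125a-5p libraries and 567 ± 49.6 CPM in control libraries (SD, n = 3). Its relative HMGN1 had 208 ± 21.2 CPM in miR-125a-5p libraries and 188 ± 27.1 CPM in control libraries (SD, n = 3). HMGB2, a DNA-bending protein of dividing cells, had 286 ± 13.3 CPM in miR-125a-5p libraries and 312 ± 29 CPM in control libraries (SD, n = 3). All 3 overlapped between groups, and the HMGN and HMGB genes, like HMGA1, have many pseudogene copies.

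Proteins with the cold shock domain, the RNA-binding fold that LIN28 shares, had 4 tested members, all with a positive log2 fold change and a median of 0.040 that was -0.018 without miR-125a-5p library 2. YBX3, a translational repressor, had 49.3, 58.0 and 50.7 CPM in miR-125a-5p libraries and 42.8, 43.8 and 42.7 CPM in control libraries (log2 fold change 0.29, SE 0.12, edgeR adjusted p = 0.744). CARHSP1, a regulator of mRNA stability in macrophages, had 14.8 ± 2.05 CPM in miR-125a-5p libraries and 14.5 ± 1.76 CPM in control libraries (SD, n = 3).

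Other oncofetal genes had 8 tested members of 16, 5 negative, with a median of -0.079 that was -0.0069 without control library 3. PLAGL1, an imprinted zinc finger gene with a miR-125 7mer, had 132, 145 and 132 CPM in miR-125a-5p libraries and 155, 189 and 160.4 CPM in control libraries (log2 fold change -0.30, SE 0.10, edgeR adjusted p = 0.586). The imprinted gene MEST had 20.6, 18.4 and 28.7 CPM in miR-125a-5p libraries and 16.2, 15.9 and 16.2 CPM in control libraries. Each group stood apart from the other in both genes, but the log2 fold change of MEST, 0.48 (edgeR adjusted p = 0.670), was 0.27 without miR-125a-5p library 3. GPC3, a surface proteoglycan of fetal liver, had 67.5 ± 6.28 CPM in miR-125a-5p libraries and 59.4 ± 6.35 CPM in control libraries (SD, n = 3), with overlapping groups. In bulk RNA of this kind, fewer cells with a transcript and less of it per cell cannot be told apart.

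**Figure D4:**
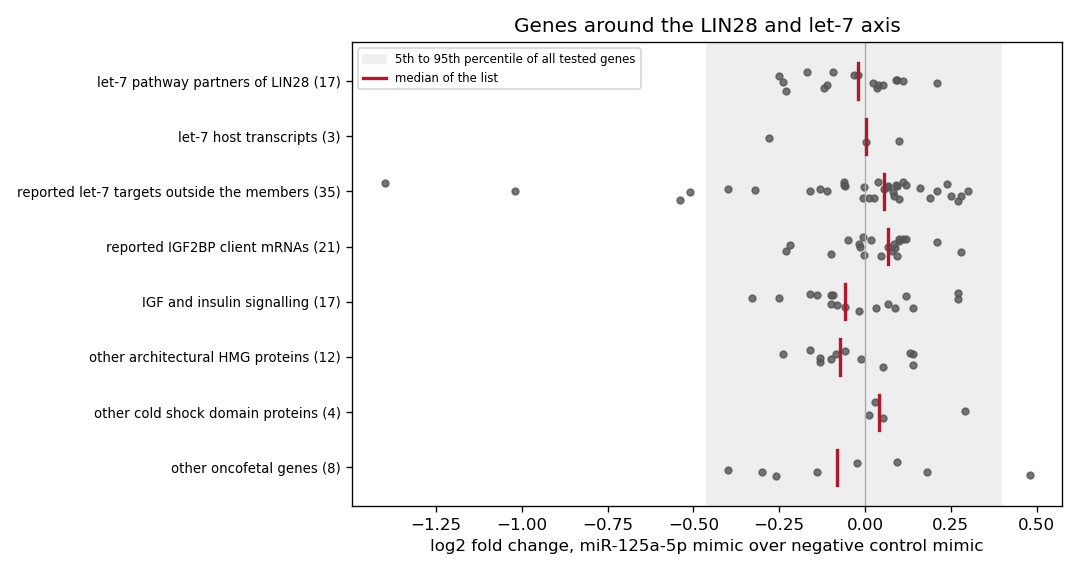
Log2 fold changes (miR-125a-5p mimic over negative control mimic) of the tested genes of 8 lists around the LIN28 and let-7 axis, with the number of genes in parentheses. Grey points are genes with vertical jitter, red bars are list medians (-0.079 to 0.068), and the shaded band spans the 5th to the 95th percentile of all tested genes (-0.461 to 0.397). FAS is the leftmost point at -1.40, and 0 of the genes passed.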

How the data were processed

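The authors deposited raw counts per gene for 6 libraries, whole numbers with no normalization, per the file headers and values. The submitters' processing notes name bcl2fastq, TopHat, edgeR and hg19. For the counter, annotation and strand setting, the entry is: not given in the sources used here. Of the gene identifiers 99.5% matched RefSeq names, and 0 columns belonged to no library. Library pairs within a group differed from each other by more than sampling noise (chi-square per gene 4.00 to 12.1), so all libraries were counted.

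Counts were tested with edgeR 4.0.16 (R 4.3.3; filterByExpr, trimmed mean of M-values, glmQLFit and glmQLFTest, no covariate) over 14731 genes with Benjamini-Hochberg adjustment at 0.05, and the steps were tested on simulated data. The SE is the log2 fold change divided by the square root of F, and intervals use the test's degrees of freedom. Genes under the filter got counts and exact intervals. Log2 CPM used a prior count of 2. Alternatives were DESeq2 1.42.0, limma voom 3.58.1, other filters and scaling, each library left out and a replicate block.

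The genes and lists were chosen with earlier results of these data known. The text names the 7 genes, antisense and pseudogene rows named after them, per list the genes called or else the 3 with the smallest p, and the 2 nearest genes of each member of at least 5 CPM. One listed gene that the rule names is not reported here.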

Additional observations from a re-analysis of the deposited data

How the results depend on the processing

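Over all tested genes 0 were higher and 4 lower. With no count filter 11 were higher and 41 lower, with DESeq2 2 and 9, and with the replicate number as a block 0 and 9. Leaving out 1 library gave 0 to 2 higher and 3 to 14 lower. Of the 7 genes, 0 were called in any setting. All 7 were tested with no count filter, 3 with DESeq2 or with at least 5 CPM required, and 4 in the others. Same-numbered libraries did not deviate together (correlations -0.0156 to 0.0558), so the labels' numbers are not shown to pair them. With the block the smallest adjusted p among the 4 genes tested was 0.84. Without 1 library the log2 fold change ran from -0.60 to 0.088 for LIN28A, -0.053 to 0.25 for IGF2BP3 and -0.061 to 0.12 for HMGA1, so the sign of these 3 is not fixed, while IGF2BP2 stayed between -0.23 and -0.065. Values near 0 also changed sign without 1 library: EOGT ran from -0.11 to 0.060, RHOG -0.058 to 0.11, RRP9 -0.0066 to 0.25, GK5 -0.10 to 0.17, CARHSP1 -0.068 to 0.14, HUWE1 -0.065 to 0.055 and IGF2BP2-AS1 -0.12 to 0.16. IGF2BP2-AS1 was 0.0023 with the replicate block and 0.0055 with limma voom. With at least 5 CPM required the median of the other oncofetal genes was 0.034. Counting every annotated 3′ UTR, 3 of the 7 genes held a miR-125 7mer or 8mer and 7 a let-7 one, HMGA2 being the addition to both. Depth limits LIN28A, LIN28B, IGF2BP1 and HMGA2, and the smallest change that could have been called for them was not worked out. The cause of these shifts was not tested.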

Other observations

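The table also has rows for the let-7 hairpins themselves, which LIN28 binds as precursors. The 12 rows of let-7 and miR-98 summed to 14, 31 and 16 counts in miR-125a-5p libraries 1, 2 and 3 and to 34, 33 and 26 counts in control libraries 1, 2 and 3. MIRLET7G held most of them, with 8, 22 and 12 counts in miR-125a-5p libraries and 26, 25 and 20 in control libraries, and was singled out after its values were seen. Its log2 fold change was -0.68 (SE 0.47, edgeR adjusted p = 0.898). The other 11 rows had at most 6 counts in any library. Reads of long RNA over a hairpin row can come from the host transcript, so these counts are not levels of the mature microRNA.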
